A study of Mus musculus with 12 samples.

Results

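The cadherin superfamily was described here in the caudate putamen (dorsal striatum) of adult mice after exposure of the embryo to ethanol. Members were the probes of an Illumina bead array that named a single gene whose symbol begins with Cdh and a digit, with Pcdh or with Celsr, and that were detected (p under 0.05) on 6 or more of the 12 arrays. Of 151 probes of the family, which name 91 genes, 69 probes of 50 genes met this rule, among 20296 probes of the series that were detected as often and were tested. Of the 69 member probes, 30 probes of 27 genes belonged to the clustered protocadherins, and 39 probes of 23 genes to the other cadherins and protocadherins.

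Total RNA of 12 samples was hybridised, 1 array per sample. The ethanol group had 6 samples from male C57BL/6J mice aged 12 weeks, whose mothers drank 10% (v/v) ethanol of their own will in early pregnancy, day 0.5 to day 8.5. The control group had 6 samples from male mice of the same strain and age, labelled only as controls, and the treatment text of the ethanol group is repeated on them, so their grouping rests on the titles. The titles place the arrays on 2 chips, each with 3 ethanol arrays (ethanol 1 to 3 on chip 1 and ethanol 4 to 6 on chip 2) and the 3 control arrays of the same numbers. Whether the samples are separate mice or litters is not stated, and the p-values cover the spread between these 12 samples alone. Prenatal exposure ended long before the tissue was taken, so the values describe adult tissue and not the exposed embryo.

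Cadherins are membrane proteins that bind their like on the next cell in the presence of calcium. Classical cadherins hold on to the actin skeleton through catenins, and they mark regions and layers of the brain by which members are made there. The clustered protocadherins lie in tandem alpha, beta and gamma arrays, and each neuron switches on its own small choice of promoters there, so that its branches can tell themselves from those of other neurons. The Celsr proteins are multipass cadherins of planar cell polarity that steer axon tracts. In the striatum, several cadherins follow the map of inputs from cortex and thalamus.

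No member passed the test between ethanol and control tissue after adjustment over all tested probes. Across the members, an adjusted p under 0.05 in limma was found for 0 of 69 probes and for 0 of 20296 tested probes (0%), and the members' adjusted p lay between 0.845 and 0.998. At an unadjusted p under 0.05 stood 11 of 69 members (15.9%), against 5.79% of all tested probes. Of these 11, 5 were higher in ethanol (Celsr1, Pcdha11, Pcdhb19, Cdh22 and Cdh11), where 2.9% of all tested probes were, and 6 were lower (a probe each of Cdh13 and Cdh7, and Pcdhb20, Pcdhb14, Pcdhga8 and Pcdhgb6), where 2.89% of all tested probes were. The count of 11 was 6 without background correction, and also 6 with the intensities as the authors normalized them, against 5.91% of all tested probes in each. It was 5 on the arrays of chip 1 alone (6.45% of all tested probes) and 14 on those of chip 2 alone (10.1% of all tested probes). Counting the setting of the 11 itself, the p under 0.05 was kept in 28 of 29 settings for Pcdhb14, Pcdhb20, Pcdhga8, Cdh22 and Cdh13. It was kept in 19 of 29 for Pcdhgb6 and in 14 of 29 for Pcdhb19. Of the 27 settings that could be run for the rest, it was kept in 27 for Celsr1, 24 for Pcdha11, 17 for Cdh7 and 15 for Cdh11. These probes failed the stricter detection filters, so those settings could not be run. Celsr1 (6 ethanol, 1 control array) and Cdh11 (5 ethanol, 2 control) were detected mainly in ethanol, where they were higher. Their counts therefore describe dim probes that passed the detection rule through that group.

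The differences were small and went both ways. Of the 69 members, 37 had a higher mean in ethanol and 32 a lower one, where 49.8% of all tested probes were lower, and the median log2 difference was 0.011 over the members and 0.00037 over all tested probes. The 95% interval of the difference lay within a fold of 2 in either direction for all 69 members, and for 20203 of all 20296 tested probes. It lay within a fold of 1.5 for 58 of the 69 members, and for 18645 of the 20296 tested probes. These are folds of array intensity. The standard error (SE) of a log2 difference had a median of 0.133 over the members and 0.113 over all tested probes. In whole tissue, fewer cells of a type and less RNA per cell cannot be told apart.

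**Figure D1:**
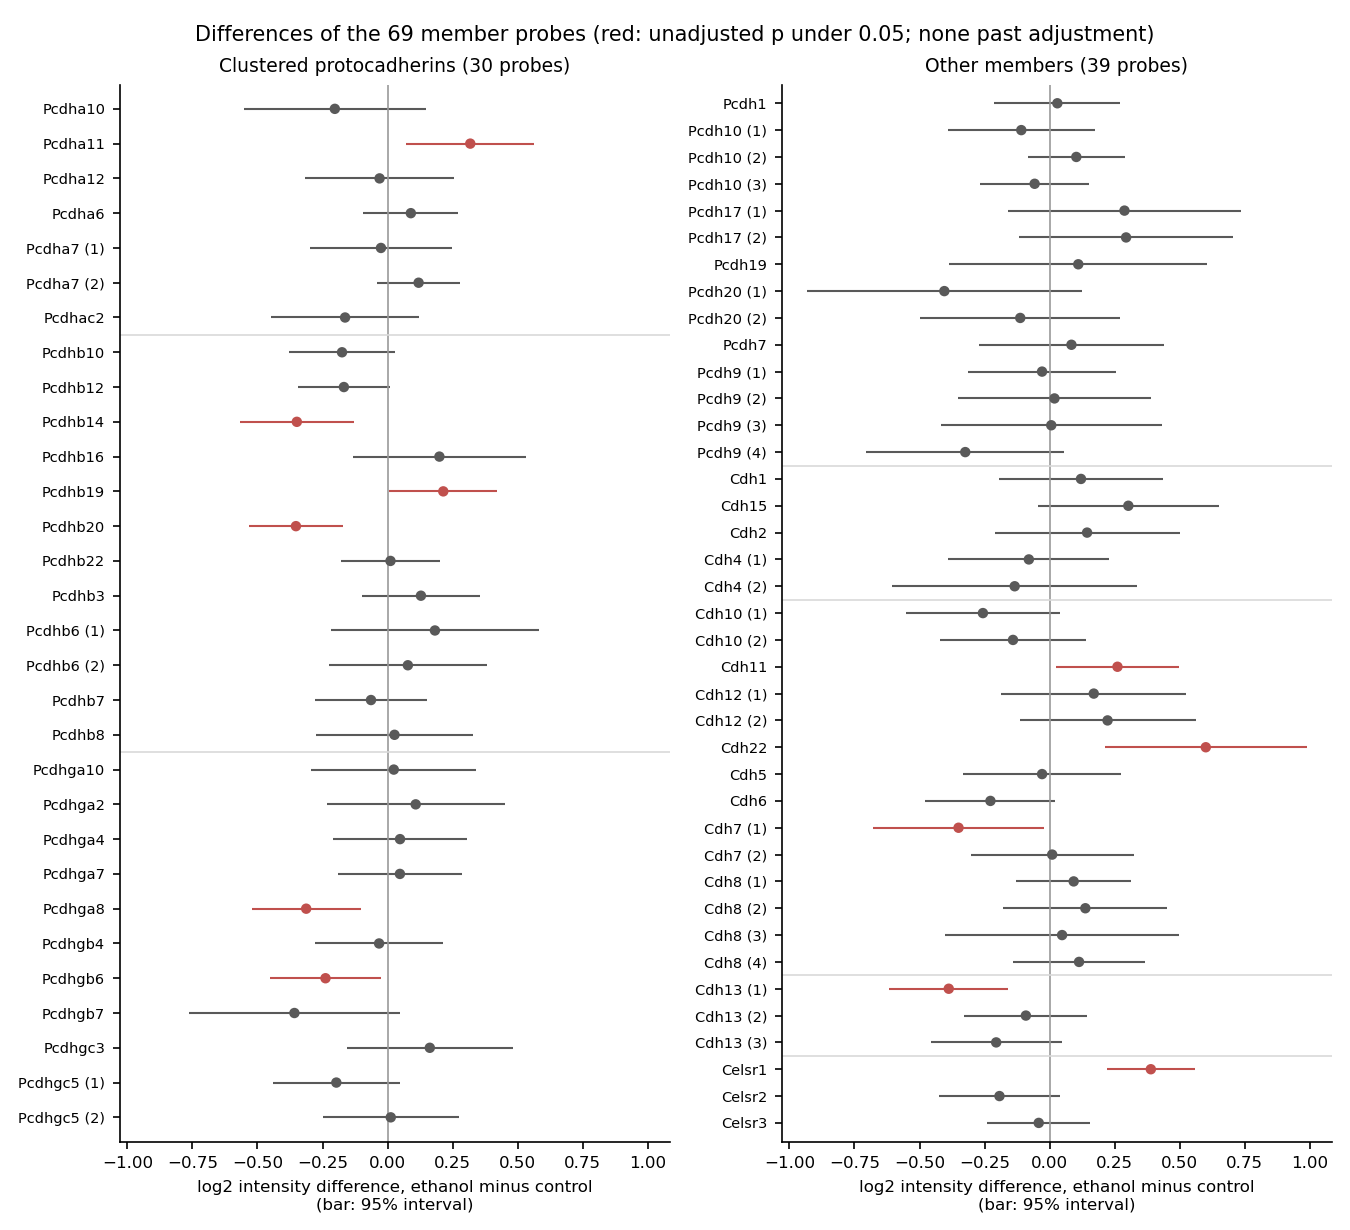
Log2 difference in intensity, ethanol minus control, for each of the 69 member probes, with bars for the 95% interval, clustered protocadherins in one panel and the other members beside them. Probes of a gene are numbered in order of their identifiers. The 37 higher and 32 lower values lie around 0, and no member passed the adjusted threshold.

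Raw median intensity was 149.5 to 153.2 on the arrays of chip 1 and 136.1 to 144.5 on those of chip 2, without overlap, and each chip held 3 arrays of each group. On the 12 arrays 19452 to 21949 probes were detected, and of the members 63 to 67 were detected in ethanol arrays and 63 to 67 in control arrays. Of 14 striatal projection neuron genes, 10 were tested, and each was detected on all 12 arrays. Their mean log2 level was 12.4 to 12.8 on ethanol arrays and 12.6 to 12.8 on control arrays, and 0 of the 10 had an unadjusted p under 0.05. Other cell types varied more between arrays: 10 oligodendrocyte genes had a mean log2 level of 10.9 to 12.2 on ethanol arrays and 11.4 to 12.2 on control arrays.

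Most members were measured on every array. Of the 69, 53 were detected on all 12 arrays and 16 on fewer. Pcdhgb7 was the 1 member detected on exactly 6 arrays (2 ethanol, 4 control), and Celsr1 (6 ethanol, 1 control) and Cdh11 (5 ethanol, 2 control) the 2 detected on 7. Just outside the rule, at 5 arrays, were the other probe of Pcdha10 (1 ethanol, 4 control), Pcdhb1 (2 and 3) and Pcdhgc4 (2 and 3). Of the 82 probes of the family left out, 51 were detected on no array, 8 on more ethanol than control arrays and 21 on more control than ethanol arrays. A member detected mainly in the group where it is higher passed the filter through that group, so such a difference is a description of dim signal. A probe left out was detected on too few arrays to be tested, which does not show that its gene was silent. Outside the cluster, the genes without a member were Pcdh8, Pcdh12, Pcdh15, Pcdh18, Cdh3, Cdh9, Cdh16, Cdh17, Cdh18, Cdh19, Cdh20, Cdh23, Cdh24 and Cdh26.

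Among the clustered protocadherins, 27 genes of 54 with a probe had a member, of 58 genes of the cluster in the reference gene table. Their log2 differences had a median of 0.012, with 16 probes higher and 14 lower in ethanol. At an unadjusted p under 0.05 stood 6 of 30 (20%), 2 higher and 4 lower, against 5.79% of all tested probes (2.9% higher and 2.89% lower). Their mean log2 level was 6.79 to 6.94 with a median of 6.86 on ethanol arrays, and 6.81 to 6.97 with a median of 6.89 on control arrays, so the groups overlapped. The alpha and gamma genes each splice 1 of many first exons to shared last exons, and the paralogs are near copies of each other. No source used here gives probe positions, so a value of an alpha or gamma probe may read several isoforms, and its gene name is uncertain.

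The alpha genes with a member were Pcdha6, Pcdha7, Pcdha10, Pcdha11, Pcdha12 and Pcdhac2, of which Pcdhac2 is a C-type isoform whose promoter is used apart from the choice made among the others. Pcdha11 (ILMN_2946047) had a log2 intensity of 5.51, 5.83 and 6.10 (lowest, median, highest) in ethanol, against 5.13, 5.49 and 5.66 in control. The groups overlapped, and the log2 difference was 0.32 (SE 0.11, unadjusted p 0.0146, limma), alike on chip 1 (0.26) and chip 2 (0.37). The other alpha probes had differences between −0.20 and 0.12. The 2 probes of Pcdha7 differed in sign, at −0.025 (SE 0.13) and 0.12 (SE 0.074), and neither had an unadjusted p under 0.05.

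The beta genes, which have a single exon each and so no shared exon, held the smallest p among the clustered members. Pcdhb20 (ILMN_2979449) had a log2 intensity of 6.56, 6.73 and 6.93 in ethanol, against 6.90, 7.07 and 7.24 in control. Only the highest ethanol array lay above the lowest control array. The log2 difference was −0.35 (SE 0.085, unadjusted p 0.000929, adjusted p 0.845, limma), with −0.16 on chip 1 and −0.54 on chip 2. Pcdhb14 (ILMN_2607000) had 6.63, 6.79 and 7.06 in ethanol, against 6.98, 7.16 and 7.38 in control. Its groups overlapped, and the difference was −0.35 (SE 0.10, unadjusted p 0.00405, limma), with −0.22 on chip 1 and −0.47 on chip 2.

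Pcdhb10 and Pcdhb12, the genes with a member next before Pcdhb14, had log2 differences of −0.17 (SE 0.095) and −0.17 (SE 0.082), without reaching an unadjusted p under 0.05. On either side of these genes the sign was the other. Pcdhb8, next before Pcdhb10, had 0.027 (SE 0.14), and Pcdhb16, next after Pcdhb14, had 0.20 (SE 0.16). Pcdhb19, the direct neighbour of Pcdhb20 in the reference gene order, differed in the other direction. It had a log2 intensity of 6.88, 7.08 and 7.36 in ethanol, against 6.67, 6.88 and 7.05 in control, and a difference of 0.21 (SE 0.097, unadjusted p 0.0438, limma), with 0.37 on chip 1 and 0.060 on chip 2. All these neighbours were singled out after their values were seen. The remaining beta genes with a member were Pcdhb3, Pcdhb6, Pcdhb7 and Pcdhb22, with differences between −0.064 and 0.18.

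**Figure D2:**
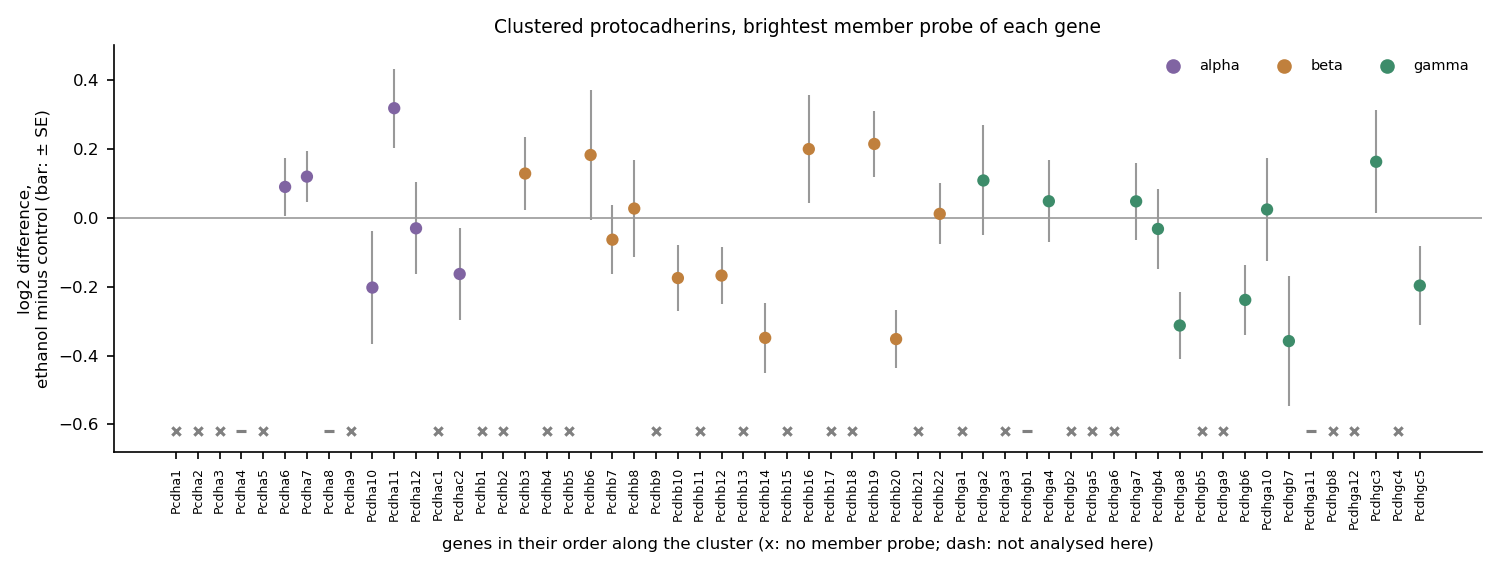
Log2 difference, ethanol minus control, with bars of 1 SE, for the brightest member probe of each clustered protocadherin gene, in the order of the genes along the cluster in the reference gene table. Crosses mark genes with probes but no member. Pcdhb10, Pcdhb12 and Pcdhb14 lie below 0, while Pcdhb8 before them and Pcdhb16 after them lie above 0. Pcdhb19 and its neighbour Pcdhb20 lie on opposite sides.

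The gamma genes with a member were Pcdhga2, Pcdhga4, Pcdhga7, Pcdhga8, Pcdhga10, Pcdhgb4, Pcdhgb6, Pcdhgb7, Pcdhgc3 and Pcdhgc5. Gamma protocadherins are known for neuron survival and for the spacing of dendrites. Pcdhga8 (ILMN_2705452) had a log2 intensity of 6.35, 6.56 and 6.93 in ethanol, against 6.78, 6.88 and 7.06 in control. A single ethanol array lay among the controls, and the log2 difference was −0.31 (SE 0.098, unadjusted p 0.00626, limma), with −0.30 on chip 1 and −0.33 on chip 2. Pcdhgb6 (ILMN_2722632) had 6.56, 6.69 and 6.83 in ethanol, against 6.72, 6.83 and 7.28 in control, and the groups overlapped. The difference was −0.24 (SE 0.10, unadjusted p 0.0321, limma). Pcdhgb7, next to the threshold of detection, had a difference of −0.36 with an SE of 0.19, and the 2 probes of Pcdhgc5 stood at −0.20 and 0.012.

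Across the cluster, the 3 families differed little as wholes. The median log2 difference was −0.025 over the 7 alpha probes, 0.019 over the 12 beta probes and 0.012 over the 11 gamma probes, against 0.00037 over all tested probes. The mean log2 level of the beta probes overlapped between groups and was 6.53 to 6.67 on ethanol arrays and 6.55 to 6.82 on control arrays.

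**Figure D3:**
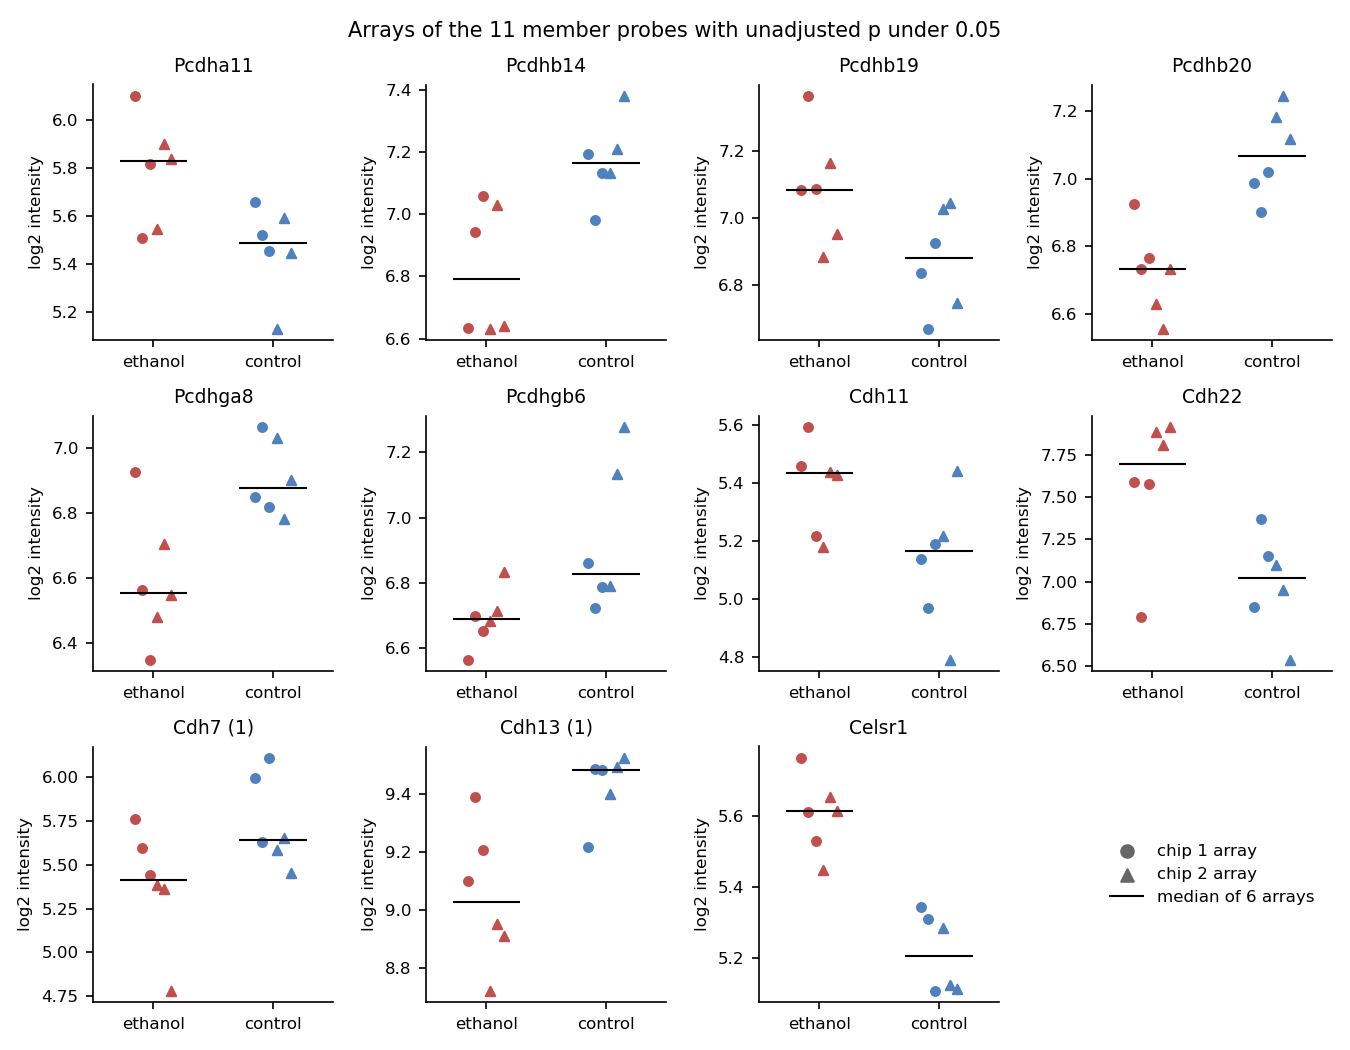
Log2 intensity of the 11 member probes with an unadjusted p under 0.05 on each array, ethanol left of control, with circles for chip 1, triangles for chip 2 and a line at the median of 6 arrays. Celsr1 is the only one of the 11 whose groups do not overlap, and Cdh22 has 1 ethanol array, ethanol 2, among the controls.

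Of the non-clustered protocadherins, 14 probes of Pcdh1, Pcdh7, Pcdh9, Pcdh10, Pcdh17, Pcdh19 and Pcdh20 were members, with 8 higher, 6 lower and a median log2 difference of 0.012. None of the 14 had an unadjusted p under 0.05. Of 69 members, 9 had an unadjusted p under 0.05 (limma) for the change in difference between the chips, against 9.98% of all tested probes. None passed adjustment. Among the 9 were both probes of Pcdh17, both of Pcdh20 and the probe of Cdh22, a type II cadherin. The 250 bases before and the 50 after the start of these 3 genes are shown because they gave the 3 largest differences on chip 2 among the 15 member genes considered, found by symbol in the RefSeq promoter table (assembly GRCm38.p6). The choice was made after the values were seen. CG dinucleotides, the sites of DNA methylation, are in capitals.
Cdh22 promoter: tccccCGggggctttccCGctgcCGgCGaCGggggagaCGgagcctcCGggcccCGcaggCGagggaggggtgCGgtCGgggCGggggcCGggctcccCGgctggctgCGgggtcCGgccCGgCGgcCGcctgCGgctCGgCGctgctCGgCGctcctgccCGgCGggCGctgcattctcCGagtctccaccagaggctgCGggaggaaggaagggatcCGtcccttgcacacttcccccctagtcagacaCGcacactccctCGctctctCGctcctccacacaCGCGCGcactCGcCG
Pcdh17 promoter: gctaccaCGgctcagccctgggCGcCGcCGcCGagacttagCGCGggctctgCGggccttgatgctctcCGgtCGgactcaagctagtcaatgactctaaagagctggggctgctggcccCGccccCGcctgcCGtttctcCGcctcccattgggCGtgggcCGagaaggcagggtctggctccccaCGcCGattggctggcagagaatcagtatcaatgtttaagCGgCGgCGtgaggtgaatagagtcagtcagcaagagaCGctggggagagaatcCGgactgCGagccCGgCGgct
Pcdh20 promoter: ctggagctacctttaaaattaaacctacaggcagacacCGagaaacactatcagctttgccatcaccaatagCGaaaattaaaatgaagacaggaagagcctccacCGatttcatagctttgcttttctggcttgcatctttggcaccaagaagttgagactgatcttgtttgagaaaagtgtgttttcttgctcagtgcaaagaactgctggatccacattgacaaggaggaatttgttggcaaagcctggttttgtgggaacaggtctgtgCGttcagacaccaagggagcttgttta

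The Cdh22 window lies at chr2:165234688-165234987 on the minus strand, the Pcdh17 window at chr14:84443313-84443612 on the plus strand and the Pcdh20 window at chr14:88471347-88471646 on the minus strand, all in GRCm38.p6. The Cdh22 window held 38 CG dinucleotides and was 76.3% G or C, the Pcdh17 window held 26 and was 65% G or C, and the Pcdh20 window held 4 and was 43.7% G or C. Over the 32851 promoter windows of the table, the median was 7 CG dinucleotides and the 90th percentile 31. The letters CCAAT, searched on both strands, were in the Pcdh17 and Pcdh20 windows and in 37.4% of all windows. The letters TATAAA, on both strands, were in none of the 3 and in 13.6% of all windows. No methylation or binding was measured, so these are descriptions of the sequences.

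Pcdh17 is a protocadherin of synapses along the pathways between cortex and basal ganglia. Its probe ILMN_2528431 had a log2 intensity of 8.21, 7.57, 7.21, 8.39, 8.49 and 8.38 on ethanol 1 to 6, against 8.22, 7.72, 7.85, 7.46, 7.48 and 7.79 on control 1 to 6. Ethanol 4, 5 and 6 were above all controls, ethanol 1 was level with the highest control, ethanol 2 was within the range of the controls and ethanol 3 was below it. The log2 difference was 0.29 (SE 0.21, unadjusted p 0.192, limma), made up of −0.26 on chip 1 and 0.84 on chip 2. Probe ILMN_2804444 had 11.44, 10.67, 10.33, 11.60, 11.29 and 11.23 on ethanol 1 to 6, against 11.09, 10.88, 10.98, 10.55, 10.53 and 10.78 on control 1 to 6. Here ethanol 1, 4, 5 and 6 were above all controls, with a difference of 0.29 (SE 0.19), and −0.17 on chip 1 and 0.75 on chip 2. The difference between the chips had an unadjusted p of 0.00334 and 0.0124 for the 2 probes in limma and an adjusted p of 0.395 and 0.415, so it did not pass.

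Markers of young neurons were high on the same ethanol arrays as Pcdh17, but not on the same control arrays. Of 10 genes of the neurogenic niche beside the lateral ventricle, 5 were tested (Dcx, Dlx1, Dlx2, Sox11 and Top2a). All 5 had a higher mean in ethanol, with a median log2 difference of 0.32. Of the 5, 2 had an unadjusted p under 0.05 (limma), where 2.9% of all tested probes were higher at that p, and 0 passed the adjusted threshold. Their mean log2 level was 7.96 to 8.49 on ethanol 1, 4, 5 and 6, and 7.47 and 7.48 on ethanol 2 and 3, against 7.54 to 7.73 on control arrays. Pcdh17 too was high on ethanol 1, 4, 5 and 6 and lower on ethanol 2 and 3. Among the controls, control 1 had the highest value of both Pcdh17 probes and a niche level of 7.55, while control 4 had the lowest value of ILMN_2528431 and a niche level of 7.72. Dlx5 was detected on too few arrays to be tested. The part of these cells in the Pcdh17 values was not tested.

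**Figure D4:**
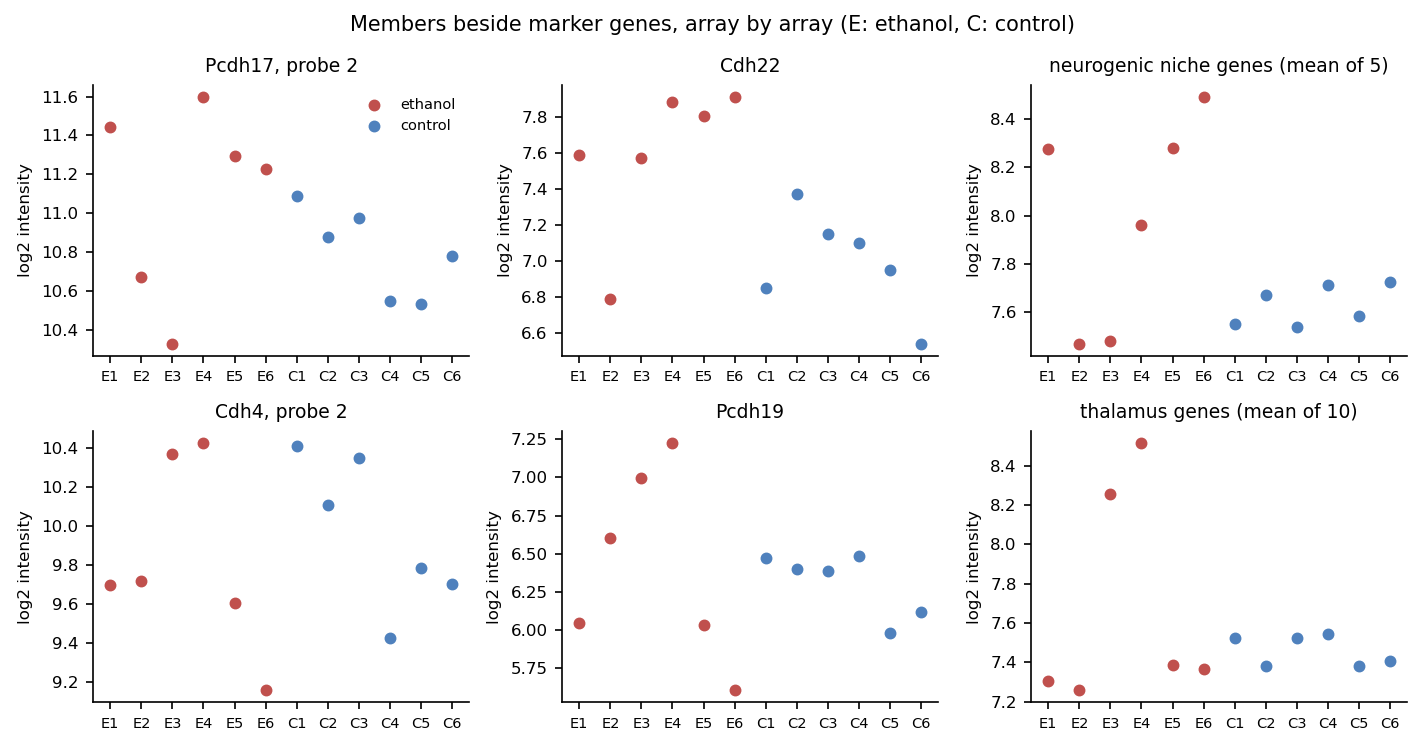
Log2 intensity of Pcdh17, Cdh22, Cdh4 and Pcdh19 on each array beside the mean log2 level of 5 neurogenic niche genes and of 10 thalamus genes, ethanol (E) left of control (C). Ethanol 1, 4, 5 and 6 are high for Pcdh17 and the niche genes, and ethanol 3 and 4 are high for Pcdh19 and the thalamus genes.

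Pcdh20 had differences of the other sign on chip 2. Its probe ILMN_1224947, detected on 4 ethanol and 6 control arrays, had a log2 intensity of 5.28, 5.97 and 6.78 in ethanol, against 5.61, 6.43 and 6.74 in control. The groups overlapped, and the log2 difference of −0.40 (SE 0.25, unadjusted p 0.124, limma) was made up of 0.22 on chip 1 and −1.03 on chip 2. Probe ILMN_1237302 had 7.56, 8.00 and 8.84 in ethanol, against 7.87, 8.17 and 8.58 in control, with a difference of −0.11 (SE 0.18), and 0.26 on chip 1 and −0.49 on chip 2. The unadjusted p of the chip difference was 0.00685 and 0.033, and neither passed adjustment. Oligodendrocyte genes varied over some of the same arrays. Of 12, 10 were tested, 0 with an unadjusted p under 0.05, and their median log2 difference was 0.30 on chip 1 and −0.59 on chip 2. Their mean log2 level was 12.23 on ethanol 3 and 10.85 on ethanol 4, the highest and lowest of the ethanol arrays, against 12.20 on control 4, the highest of the controls. Pcdh20 (ILMN_1224947) was 6.78 on ethanol 3 and 5.28 on ethanol 4, again the highest and lowest of the ethanol arrays. It was 6.74 on control 4, again the highest of the controls. On ethanol 6 it was 5.29, with an oligodendrocyte level of 11.39. Probe ILMN_1237302 was also highest on ethanol 3 among ethanol arrays, but lowest on ethanol 6 (7.56, with 7.97 on ethanol 4). Its highest control was control 5 (8.58, with 8.33 on control 4). The part of oligodendrocytes in the Pcdh20 values was not tested.

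Pcdh9 had 4 member probes. Probe ILMN_3028837 had a log2 intensity of 6.80, 7.63 and 8.00 in ethanol, against 7.64, 7.84 and 8.17 in control. The groups overlapped, with a log2 difference of −0.32 (SE 0.18, unadjusted p 0.0891, limma). The other 3 probes had differences of −0.029 (SE 0.13), 0.019 (SE 0.17) and 0.0063 (SE 0.20), for ILMN_1231837, ILMN_1243310 and ILMN_1248508 in turn. Their log2 intensities spanned 10.03, 10.23 and 10.93 in ethanol and 10.18, 10.35 and 10.58 in control for ILMN_1231837. The spans were 5.80, 6.28 and 6.83 in ethanol and 5.83, 6.35 and 6.65 in control for ILMN_1243310. They were 6.06, 6.56 and 7.33 in ethanol and 5.97, 6.65 and 6.96 in control for ILMN_1248508, so all 4 probes overlapped between groups.

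Pcdh10, which binds the WAVE actin regulators and is needed for striatal axon growth in mice, had 3 member probes that differed in sign. Probe ILMN_2663752 had 8.60, 8.74 and 8.89 in ethanol, against 8.46, 8.65 and 8.82 in control, a difference of 0.10 (SE 0.088, unadjusted p 0.26, limma). Probe ILMN_1228833 had 7.63, 8.26 and 8.32 in ethanol, against 7.97, 8.24 and 8.42 in control, a difference of −0.11 (SE 0.13). Probe ILMN_2727239 had 8.65, 8.90 and 9.22 in ethanol, against 8.80, 8.95 and 9.12 in control, a difference of −0.058 (SE 0.097). The groups overlapped for each.

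Pcdh19, whose mutation causes an epilepsy, had the widest spread among the ethanol arrays of these genes. Its probe ILMN_2696829 had a log2 intensity of 6.04, 6.60, 7.00, 7.22, 6.03 and 5.61 on ethanol 1 to 6, against 6.47, 6.40, 6.39, 6.48, 5.98 and 6.12 on control 1 to 6. Ethanol 2, 3 and 4 were above all controls and ethanol 6 below them, and the difference was 0.11 (SE 0.23, unadjusted p 0.642, limma). Without ethanol 3 and ethanol 4 it was −0.24. Of 13 thalamus genes, 10 were tested, 1 of them with an unadjusted p under 0.05 (limma), higher in ethanol. Over all tested probes 2.9% were higher at that p. The mean log2 level of the 10 was 8.26 on ethanol 3 and 8.51 on ethanol 4. It was 7.26 to 7.38 on the other ethanol arrays and 7.38 to 7.54 on control arrays. Ethanol 2, also above all controls for Pcdh19, had the lowest thalamus level of the 12 arrays (7.26). The part of thalamus tissue in the Pcdh19 values was not tested.

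Pcdh7 (ILMN_2881857) had 5.74, 6.05 and 6.74 in ethanol, against 5.61, 6.01 and 6.45 in control, a difference of 0.084 (SE 0.17). Pcdh1 (ILMN_1260020) had 6.20, 6.42 and 6.49 in ethanol, against 5.97, 6.36 and 6.80 in control, a difference of 0.030 (SE 0.11). The groups overlapped for both.

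Type I cadherins were Cdh1, Cdh2, Cdh4 and Cdh15, with 5 member probes, 3 higher and 2 lower, and a median log2 difference of 0.12. Cdh2 or N-cadherin, the main adhesion molecule of synapses, had a log2 intensity of 5.59, 5.81 and 6.17 in ethanol, against 5.22, 5.66 and 6.23 in control. The difference was 0.14 (SE 0.17, unadjusted p 0.4, limma) and the groups overlapped. Cdh4 or R-cadherin had 6.21, 6.46 and 6.88 in ethanol, against 6.06, 6.69 and 6.90 in control, for ILMN_1255939 (difference −0.080, SE 0.14). It had 9.16, 9.71 and 10.43 in ethanol, against 9.42, 9.95 and 10.41 in control, for ILMN_1260036 (difference −0.13, SE 0.22). Within the ethanol arrays, ethanol 3 and 4 had the highest value of both Cdh4 probes, and these 2 arrays had the highest thalamus level. Control 1 and control 3 had similar values of ILMN_1260036 (10.41 and 10.35, with 10.37 on ethanol 3 and 10.43 on ethanol 4). Their thalamus level was 7.52 and 7.53, against 8.26 on ethanol 3 and 8.51 on ethanol 4. The other controls had 9.42 to 10.11 for that probe. ILMN_1255939 was 6.90 on control 1 and 6.69 on control 3, with 6.88 on ethanol 3 and 6.73 on ethanol 4. The part of thalamus tissue in the Cdh4 values was not tested. Cdh15 or M-cadherin, best known from muscle, had 6.75, 7.21 and 7.59 in ethanol, against 6.54, 6.91 and 7.21 in control, with an overlap of the groups and a difference of 0.30 (SE 0.16). The Cdh15 difference was −0.065 on chip 1 and 0.67 on chip 2, with an unadjusted p of 0.00954 for that change and an adjusted p of 0.415 in limma. Cdh1 or E-cadherin, of epithelia, detected on 6 ethanol and 4 control arrays, had a difference of 0.12 (SE 0.15).

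Type II cadherins, which sort neurons into nuclei and layers, were Cdh5, Cdh6, Cdh7, Cdh8, Cdh10, Cdh11, Cdh12 and Cdh22, with 14 member probes, 9 higher and 5 lower, and a median log2 difference of 0.070. Cdh22 had the largest absolute difference of all 69 members. Its log2 intensity was 7.59, 6.79, 7.58, 7.88, 7.81 and 7.91 on ethanol 1 to 6, against 6.85, 7.37, 7.15, 7.10, 6.95 and 6.54 on control 1 to 6. Ethanol 2 lay among the controls and the other 5 ethanol arrays above all of them. The log2 difference was 0.60 (SE 0.18, unadjusted p 0.00505, adjusted p 0.845, limma), a fold of 1.52, with 0.20 on chip 1 and 1.01 on chip 2 (unadjusted p of the difference 0.0205). Of the niche genes named above, the lowest ethanol levels were on ethanol 2 and 3, of which ethanol 3 was not low for Cdh22.

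Cdh7 (ILMN_2471866), detected on 4 ethanol and 6 control arrays, had 4.78, 5.41 and 5.76 in ethanol, against 5.45, 5.64 and 6.11 in control. The difference was −0.35 (SE 0.15, unadjusted p 0.039, limma), while the other Cdh7 probe, ILMN_2690911, with 6.83, 7.20 and 7.45 in ethanol and 6.86, 7.08 and 7.69 in control, had a difference of 0.0099 (SE 0.15). Cdh11 (ILMN_1240529), first known from bone, had 5.18, 5.43 and 5.59 in ethanol, against 4.79, 5.16 and 5.44 in control, a difference of 0.26 (SE 0.11, unadjusted p 0.032, limma). The groups overlapped in each case. Cdh6 (ILMN_2736042) had 6.11, 6.49 and 6.87 in ethanol, against 6.50, 6.68 and 6.90 in control, a difference of −0.23 (SE 0.12, unadjusted p 0.0714, limma). The 2 probes of Cdh10 had differences of −0.26 (SE 0.14) and −0.14 (SE 0.13), and the 2 of Cdh12, detected on 9 and 10 arrays, had 0.17 (SE 0.17) and 0.22 (SE 0.16).

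Cdh8, which marks corticostriatal circuits, had 4 member probes that were all higher in ethanol by small amounts. ILMN_1254818 had 7.45, 8.05 and 8.54 in ethanol, against 7.63, 7.91 and 8.16 in control, a difference of 0.14 (SE 0.15). ILMN_3163448 had 9.48, 9.97 and 10.08 in ethanol, against 9.45, 9.80 and 10.02 in control, a difference of 0.11 (SE 0.12). ILMN_1224574 had 8.63, 8.92 and 9.19 in ethanol, against 8.58, 8.82 and 9.07 in control, a difference of 0.093 (SE 0.10). ILMN_2765569, detected on 5 ethanol and 4 control arrays, had 5.14, 5.88 and 6.14 in ethanol, against 5.16, 5.85 and 6.38 in control, a difference of 0.048 (SE 0.21). All 4 overlapped between groups, and no p was under 0.05.

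Cdh5 or VE-cadherin, of blood vessel walls, had 5.37, 6.03 and 6.37 in ethanol, against 5.78, 5.97 and 6.25 in control, a difference of −0.029 (SE 0.14) and an overlap of the groups. Of 10 endothelial genes, 9 were tested, and 0 had an unadjusted p under 0.05.

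Cdh13 or T-cadherin, which is held to the membrane by a lipid anchor and has no tail for catenins, was the only other Cdh gene with a member. Its probe ILMN_2423843 had a log2 intensity of 8.72, 9.02 and 9.39 in ethanol, against 9.22, 9.48 and 9.52 in control. A single ethanol array lay above the lowest control, and the log2 difference was −0.39 (SE 0.11, unadjusted p 0.00261, adjusted p 0.845, limma), with −0.16 on chip 1 and −0.61 on chip 2. The other 2 probes were lower too, ILMN_2659503 with a difference of −0.21 (SE 0.12) and ILMN_2592321 with −0.091 (SE 0.11). Their log2 intensities were 7.46, 7.68 and 8.16 in ethanol and 7.76, 7.93 and 8.18 in control for ILMN_2659503. They were 9.67, 9.96 and 10.32 in ethanol and 9.85, 10.06 and 10.21 in control for ILMN_2592321.

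Of the 3 Celsr genes, Celsr1 stood apart from the other members. Celsr1 (ILMN_1235423) had a log2 intensity of 5.45, 5.61 and 5.76 in ethanol, against 5.11, 5.20 and 5.34 in control. The groups did not overlap, which 0.266% of all tested probes showed and 0.158% with ethanol above, and it was the 1 member of 69 that did so. The difference was 0.39 (SE 0.079, unadjusted p 0.000195, adjusted p 0.845, limma), with 0.38 on chip 1 and 0.40 on chip 2. The probe was detected on 6 ethanol and 1 control array, so its signal was dim and it passed the detection rule through ethanol. Celsr2 had 10.40, 10.62 and 10.80 in ethanol, against 10.56, 10.70 and 11.15 in control, a difference of −0.19 (SE 0.11). Celsr3, which guides the internal capsule, had 10.86, 11.20 and 11.34 in ethanol, against 11.10, 11.23 and 11.26 in control, a difference of −0.042 (SE 0.092). Both overlapped between groups.

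Where a gene had several member probes, they did not always go together. Of 13 such genes, the probes had the same sign in 8 and opposite signs in 5 (Cdh7, Pcdh9, Pcdh10, Pcdha7 and Pcdhgc5).

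The ethanol difference was also taken on each chip apart. The sign of the difference was the same on both chips for 39 of 69 members, against 46.2% of all tested probes. An unadjusted p under 0.05 for the change in difference between chip 2 and chip 1 was found for 9 of 69 members, against 9.98% of all tested probes, and 0 of 69 passed adjustment in limma (smallest adjusted p 0.395), as did 0% of all tested probes. The 9 were the probes of Pcdh17 and Pcdh20, 1 probe each of Pcdh10 and Cdh13, Pcdhb20, Cdh15 and Cdh22.

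**Figure D5:**
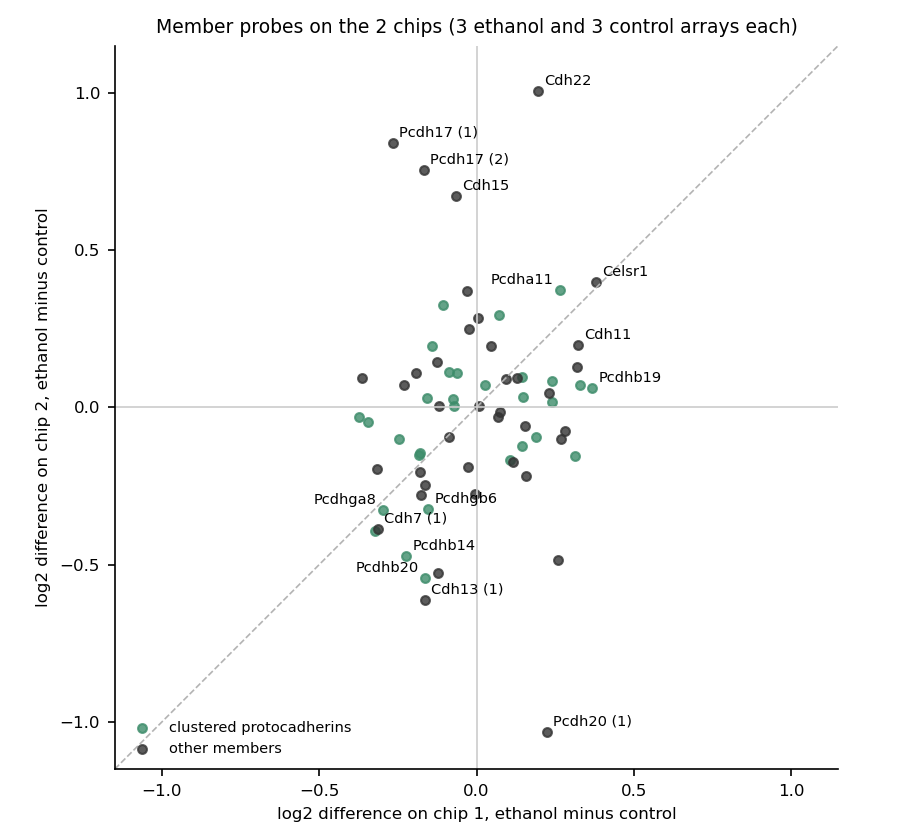
Log2 difference, ethanol minus control, of each member probe on chip 2 against that on chip 1, with a dashed line where both are equal. Names mark the members with an unadjusted p under 0.05 and those with the largest differences on chip 2, among them Cdh22 (0.20 and 1.01) and Pcdh20 (0.22 and −1.03).

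Partners of the members were described from 5 lists, 58 of whose 82 symbols were tested. None of the 58 passed the adjusted threshold, and 1 had an unadjusted p under 0.05, a smaller share than the 5.79% of all tested probes. That was Dchs1, the ligand of Fat cadherins in planar polarity, with a log2 level of 5.75 ± 0.15 in ethanol and 5.42 ± 0.17 in control (SD, n = 6 each), a difference of 0.32 (SE 0.098, unadjusted p 0.00486, limma). The Dchs1 signal was dim, near that of a Cdh12 probe (ILMN_1253923, control mean 5.43) detected on 9 of 12 arrays. The detection of Dchs1 itself in each group is not given here, so its difference is a description of dim signal. Of 11 planar polarity partners tested, 9 were higher and 2 lower, where 49.8% of all tested probes were lower. Their median was 0.042, with −0.025 on chip 1 and 0.13 on chip 2, against 0.00037 over all tested probes. Fat1 had a difference of 0.17 (SE 0.12).

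The adhesion partners, mainly catenins, had 5 higher and 6 lower of 11, with Ctnnd1 (p120 catenin, which keeps cadherins at the surface) at −0.23 (SE 0.12) and Pdlim5 at −0.46 (SE 0.25). The proteins that govern promoter choice in the protocadherin cluster had 6 higher and 8 lower of 14, with the cohesin subunit Stag1 at 0.14 (SE 0.089) and its loader Nipbl at 0.12 (SE 0.094). The kinases and adaptors bound by protocadherin tails had 3 higher and 8 lower of 11, with the phosphatase Ppp1ca at −0.15 (SE 0.085) and the kinase Ptk2b at −0.15 (SE 0.11). The median log2 difference was −0.045, −0.0085 and −0.051 over these 3 lists in turn, against 0.00037 over all tested probes. The proteases that cut cadherins had 5 higher and 6 lower of 11 and a median of −0.0016, with Mmp14 at 0.41 (SE 0.20) and Mmp2 at 0.22 (SE 0.16). Apart from Dchs1, no named partner had an unadjusted p under 0.05.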

How the data were processed

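Samples were grouped by the treatment in their titles. Per the file headers, the authors deposited for every array a column of raw probe intensity and a column of detection p-value. The values are on a linear scale and differ in total between arrays. In another table the deposited intensities are already normalized. The submitters' processing notes name GenomeStudio 1.9.0, with no background setting in the sources used here.

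For testing, raw intensities went through neqc of limma 3.58.1 in R 4.3.3 (background correction, offset 16, quantile normalization, log2). Differences are log2 ethanol minus control from lmFit and eBayes over 12 arrays and the 20296 probes detected (p under 0.05) on 6 arrays or more, two-sided, with Benjamini-Hochberg adjustment over all 20296. Chip by group interaction was fitted likewise. Gene symbols came from GEO's platform annotation (34885 probes with 1 symbol, 18 with several, 10378 with none). Marker and partner lists used the brightest tested probe of each gene, and a list's level is the mean of its log2 values.

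Within each class of members, the 5 genes with the smallest p and a set of known genes were named, and of each partner list the 2 with the smallest p. The members, lists and rule were chosen with earlier results of these data known. The fit was tested on simulated data. The number of arrays limits the precision. No array was a copy of another, the closest pair being 0.272 log2 units (root mean square) apart. Alternatives covered background, offset, scaling, filter, chip, variance model, weights and arrays left out.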

Additional observations from a re-analysis of the deposited data

Results flagged for a closer look

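Among 96 groups of 6 arrays screened (38 probes and 10 class levels, each in ethanol and control), 4 had an array whose gap to the nearest other exceeded Dixon's 95% critical value as a share of the group's range, where chance gives about 1 in 20. Cdh22 was 6.79 on ethanol 2, against 7.58 to 7.91 on the other ethanol arrays. Pcdh1 was 6.20 on ethanol 1, against 6.38 to 6.49. Cdh8 (ILMN_2765569) was 5.14 on ethanol 4, against 5.81 to 6.14. The mean level of the beta protocadherins was 6.82 on control 5, against 6.55 to 6.61 on the other control arrays.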

How the results depend on the processing

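No member and no tested probe passed adjustment under any of 28 alternatives, and no partner gene did. The smallest adjusted p of a member in limma lay between 0.272 (chip 2 alone) and 0.976 (median scaling). The members with an unadjusted p under 0.05, 11 of 69 (5.79% of all tested probes), were 6 without background correction (5.91%) and with the authors' normalized intensities (5.91%), 7 of 53 when detection was asked on all 12 arrays (5.92%) and at a detection p under 0.01 (5.92%), 5 on chip 1 alone (6.45%), 14 on chip 2 alone (10.1%), 13 with chip as a block (6.49%) and 8 to 15 with an array left out (4.99% to 7.54%). The 5 higher and 6 lower became 2 and 4 without background correction and with the authors' intensities, 3 and 6 at an offset of 50, 4 and 1 on chip 1, and 7 and 7 on chip 2. Over all tested probes, 588 higher and 587 lower became 336 and 678 with median scaling. The median difference of the clustered genes was −0.073 on chip 1 alone and −0.038 to 0.029 with an array left out, and that of the other members −0.037 to 0.061.

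Of 38 named probes, 19 changed sign under some alternative, and the cause was not tested. None of the 19 had an unadjusted p under 0.05 in the main fit. Some did under an alternative, such as both Pcdh17 probes on chip 2 alone (adjusted p 0.272 for each, limma). On chip 1 alone Pcdh17 was −0.26 and −0.17, Pcdh20 0.22 and 0.26, Pcdh9 (ILMN_1231837) 0.16, Cdh5 0.11, Cdh7 (ILMN_2690911) −0.13 and Cdh8 (ILMN_3163448) −0.023. On chip 2 alone Pcdh1 was −0.016, Pcdh10 −0.076 (ILMN_2663752) and 0.0048 (ILMN_2727239), Pcdh7 −0.10, Pcdh9 (ILMN_1243310) −0.032, Cdh4 0.070 and 0.094, Cdh8 (ILMN_2765569) −0.058 and Celsr3 0.11. With median scaling Pcdh9 (ILMN_1248508) was −0.019 and Cdh7 (ILMN_2690911) −0.0095. With array weights they were −0.076 and −0.023, and Cdh5 was 0.0054. Without ethanol 3 and ethanol 4, Pcdh19 was −0.24, Pcdh9 −0.095 (ILMN_1243310) and −0.19 (ILMN_1248508), Cdh7 (ILMN_2690911) −0.092 and Celsr3 0.019. With an array left out, Pcdh1 ranged over −0.049 to 0.12, Pcdh19 −0.051 to 0.27, Pcdh7 −0.039 to 0.17, Pcdh9 −0.15 to 0.031, −0.090 to 0.12 and −0.14 to 0.11, Cdh4 (ILMN_1260036) −0.25 to 0.00035, Cdh5 −0.11 to 0.092, Cdh7 (ILMN_2690911) −0.052 to 0.11, Cdh8 (ILMN_2765569) −0.073 to 0.18 and Celsr3 −0.079 to 0.017. Same-numbered arrays of the groups correlated above 0.1 in 3 of 6 pairs, and in 4 of 6 with deviations taken within chips, so not every pair did and the numbers were not taken as pairs. With the replicate number as a block, 0 members passed adjustment and 14 had an unadjusted p under 0.05, 4 higher and 10 lower (7.02% of all tested probes). Of the 6 ethanol arrays, 2 had their highest correlation, in deviations from the group means, with the control array of their own number.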
